A study of Mus musculus with 4 samples.

Results

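Oxidative phosphorylation runs on 5 protein complexes of the inner mitochondrial membrane. Complexes I to IV pass electrons from NADH and succinate to oxygen, complexes I, III and IV pump protons as they do so, and complex V, the ATP synthase, uses the returning protons to make ATP. Developing red cells need mitochondria for heme and iron-sulfur cluster synthesis, and clear them as reticulocytes mature. Mature red cells live on glycolysis.

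The genes described here are the nuclear-encoded subunits of these complexes. They were taken from the symbols in the deposited tables as those beginning with Nduf and a, b, c, s or v plus a digit, with Uqcr, with Cox4 to Cox8 or with Atp5 plus a letter, together with Sdha, Sdhb, Sdhc, Sdhd and Cyc1. This gave 85 of 19564 symbols, with 37 in complex I, 4 in complex II, 8 in complex III, 19 in complex IV and 17 in complex V. Among them, 3 carry such a symbol without being a subunit: Cox4nb, the gene beside Cox4i1, and Atp5s and Atp5sl, 2 accessory proteins named after the ATP synthase. Ndufa4 is grouped with complex I by its name, although its protein is known to sit in complex IV. The mitochondrial genome encodes a further 13 subunits, which are not analysed here.

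Expression was measured by RNA-seq of poly(A)-enriched RNA in 4 populations of mouse fetal liver erythroblasts, sorted by the erythroid antigen TER119 and the transferrin receptor CD71. R2 holds proerythroblasts and early basophilic erythroblasts, R3 early and late basophilic erythroblasts, R4 mostly polychromatophilic and orthochromatophilic erythroblasts, and R5 late orthochromatophilic erythroblasts and reticulocytes. The cells came from E14.5 livers and were not cultured. Each population gave 1 library, so no difference below has a replicate check, no p-value is given, and whether a library pools several embryos is not given in the sources used here.

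Values are RPKM, read counts scaled to gene length and library size, and ratios are log2 ratios of RPKM + 1, which understate the change of low genes. Calls of higher or lower below need a change of at least 2-fold on that scale. The spacing of the values implied about 23000000, 25600000, 27400000 and 20700000 reads in R2, R3, R4 and R5. Globin genes took 5.52%, 59.4%, 80.4% and 81.9% of the summed RPKM in R2, R3, R4 and R5, and RPKM of the other genes share what is left. Over the 9942 genes at 1 RPKM or more in at least 1 library, the median log2 ratio was -1.65 in R5 over R2, so a ratio as deposited is to be read against that shift. There were also 2 rescalings. In the first, libraries were scaled by the median of gene ratios. In the second, globins were removed and the rest set to a common sum. Each rescaling multiplies a library by a single factor. A change in how genes stand relative to each other thus comes from the added 1 RPKM, apart from the globins left out. In bulk samples, fewer transcripts per cell and fewer cells that carry them cannot be told apart.

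Erythroid markers were present in all 4 libraries, with Hba-a1 (alpha-globin) at 9072, 128567, 230890 and 306178 RPKM in R2, R3, R4 and R5. Markers of other cells were also present. The 10 granulocyte markers, none of them at 0, summed to 6129, 431, 238 and 472 RPKM in R2, R3, R4 and R5. The 8 hepatocyte markers summed to 219, 536, 183 and 392 RPKM in R2, R3, R4 and R5, the 8 macrophage markers to 89.7, 49.5, 20.6 and 48.7, and the 6 megakaryocyte markers to 38.2, 43.3, 23.0 and 67.3. R2 had both the highest granulocyte sum and the highest subunit levels, and the part of such cells in those levels was not tested.

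Promoters are shown for the genes that share a stretch of letters. RefSeq promoters of build GRCm38.p6, from 250 bases before to 50 after the start site, were found for 68 of the 85 members. The letters GCGCATGCGC, which read the same on both strands and match the core bound by NRF1, were in a promoter of 5 of the 68, or 7.35%. They were in 1.07% of all 27025 genes with a promoter and in 2.56% of the 8050 genes kept here. The 5 were Cox6a1, Atp5k, Uqcrc1, Atp5g2 and Ndufa11. Atp5g2 was listed at 0 in all 4 libraries and is not among the genes kept. The 68 members are thus not limited to genes kept, unlike the 8050. CCGGAAG, on either strand, the core of ETS factors such as GABP, was in 23.5% of the members and 22.1% of the genes kept, and AGATAA, on either strand, a GATA core, in 8.82% and 7.69%. None of the 3 motifs contains another. A match is a description of the sequence only. Shown are the promoters of 3 genes with GCGCATGCGC that were backed by at least 615 reads in R2, with the match in capitals, 5′ to 3′ on the gene's strand. They are Cox6a1 at chr5:115348909-115349208 on the minus strand, Atp5k at chr5:108434350-108434649 on the minus strand and Uqcrc1 at chr9:108936398-108936697 on the plus strand.
Cox6a1: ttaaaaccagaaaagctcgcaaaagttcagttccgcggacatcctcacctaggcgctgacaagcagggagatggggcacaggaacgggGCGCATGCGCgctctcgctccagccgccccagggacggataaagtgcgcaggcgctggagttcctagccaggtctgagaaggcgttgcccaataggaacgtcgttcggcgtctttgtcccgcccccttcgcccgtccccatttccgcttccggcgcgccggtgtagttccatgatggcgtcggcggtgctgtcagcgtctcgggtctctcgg
Atp5k: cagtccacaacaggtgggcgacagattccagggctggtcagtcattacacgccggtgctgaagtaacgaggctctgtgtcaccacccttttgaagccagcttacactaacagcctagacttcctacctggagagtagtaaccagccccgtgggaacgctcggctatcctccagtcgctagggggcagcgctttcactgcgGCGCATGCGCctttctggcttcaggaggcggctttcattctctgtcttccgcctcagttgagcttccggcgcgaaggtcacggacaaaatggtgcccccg
Uqcrc1: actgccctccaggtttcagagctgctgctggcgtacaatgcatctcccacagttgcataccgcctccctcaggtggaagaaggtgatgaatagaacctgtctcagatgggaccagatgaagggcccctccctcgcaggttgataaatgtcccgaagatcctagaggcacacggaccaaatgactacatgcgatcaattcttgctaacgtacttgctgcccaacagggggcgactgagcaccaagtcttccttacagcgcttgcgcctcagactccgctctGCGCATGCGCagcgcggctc
The match begins 162 bases before the start site in Cox6a1 and 50 before it in Atp5k, and at base 31 after it in Uqcrc1. The levels of these 3 genes are given with their complexes. The read numbers of Cox6a1 and Uqcrc1 are the smallest that fit their values, by fits that were not accepted.

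Of the 85 members, 80 reached 1 RPKM in at least 1 library. As deposited, the order of levels was nearly uniform. This order depends on the scaling and was not taken under the 2 rescalings. The members' median log2 ratio of R3 over R2 was -0.81 as deposited and 0.06 with median scaling. That of R5 over R2 was -1.42 and 0.16. R2 was the highest of the 4 populations for 78 of the 80 (86.2% of all genes kept), and R4 the lowest for 75 of them (73.2% of all genes). The exceptions at the top were Ndufb4, highest in R3 (8.75% of all genes), and Atp5l, highest in R5 (1.82%), and no member was highest in R4 (3.21%). R5 was the lowest for 5 members (18.3% of all genes), and R2 and R3 for none (5.71% and 2.75%). The full order R2, R3, R5, R4 from high to low held for 70 members, or 87.5%, against 57.7% of all genes. The summed RPKM of all 85 members was 12922, 7587, 3856 and 5327 in R2, R3, R4 and R5. As a share of the non-globin sum, the members held 3.43%, 3.45%, 2.79% and 3.37% in R2, R3, R4 and R5. The share of the non-globin sum in R5 was thus close to that in R2, and R4 had the lowest.

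**Figure D1:**
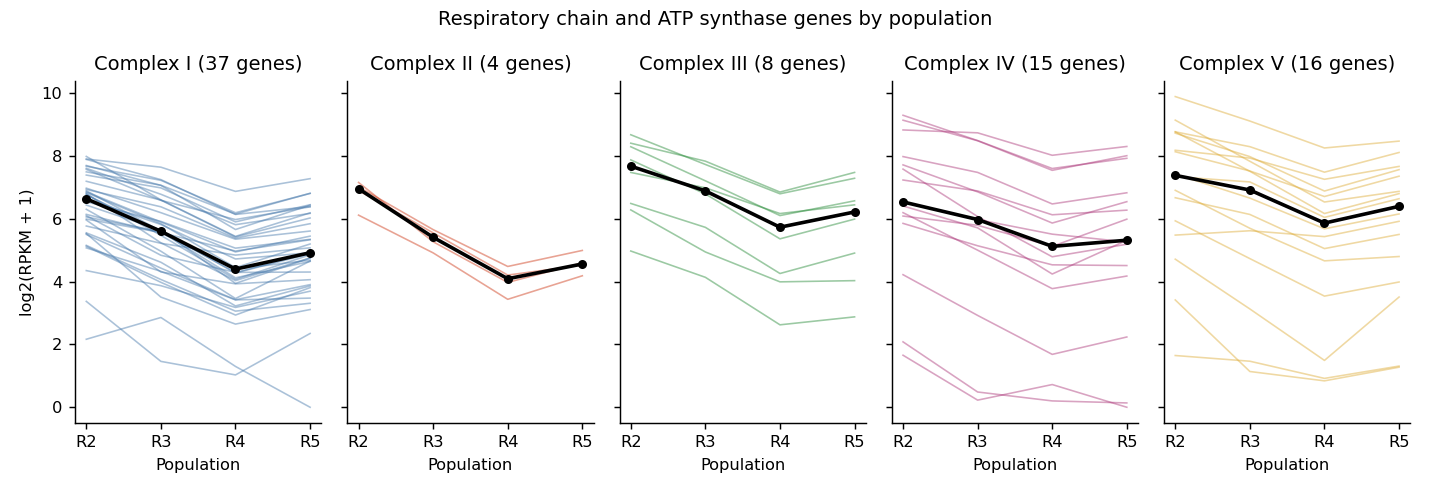
Levels of the 80 members at 1 RPKM or more in at least 1 library, as log2(RPKM + 1) on the vertical axis, in R2, R3, R4 and R5, with a panel for each complex. Values are as deposited, without rescaling. Thin lines are genes and the black line with points is the median of the complex, highest in R2 and lowest in R4 in all 5 panels.

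Across the whole course, R5 over R2, 63 of the 80 members were at least 2-fold lower and 0 at least 2-fold higher, where 76.9% of all genes kept were lower and 2.74% higher. The members' lower share of 78.8% stood close to that background. Their median log2 ratio was -1.42 and that of all genes -1.65, and 49 of the 80 lay above the all-gene median. With median scaling 2 members were lower and 4 higher (13.7% and 9.42% of all genes), with a median of 0.16 against -0.42 for all genes. Without globins 10 were lower and 2 higher (29.8% and 7.35% of all genes), with a median of -0.18 against -0.68. The direction of the median thus turned with the scaling. The members' median stood above that of all genes by 0.24, 0.58 and 0.50 on the log2 scale. These gaps are not independent checks, since each rescaling is a single factor per library. Their sizes differ through the added 1 RPKM, which weighs most on low genes.

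The complexes differed in how far they were lower in R5. Median log2 ratios were -1.46 for complex I, -2.20 for complex II, -1.65 for complex III, -1.27 for complex IV and -1.19 for complex V. At least 2-fold lower were 30 of 37 kept members of complex I, 4 of 4 of complex II, 7 of 8 of complex III, 12 of 15 of complex IV and 10 of 16 of complex V, beside 76.9% of all genes. With median scaling 1 member of complex I, 1 of complex IV and 0 of the others were lower, and the medians were 0.11, -0.62, -0.07, 0.30 and 0.36 for complexes I to V, so those of I, IV and V turned positive. Without globins the medians were -0.23, -0.97, -0.41, -0.04 and 0.02 for complexes I to V. Complex II had the lowest median and complex V the highest under each of the 3 scalings. These are not independent checks of the rank, since each rescaling is a single factor per library. The top rank depended on the filter. As deposited with a filter of 5 RPKM, complex IV stood 0.24 above the median of all members and complex V 0.21. With no filter they stood 0.23 and 0.22 above it. The share of each complex in the summed RPKM of all members needs no scaling between libraries. Complex II held 3.53%, 2.13%, 1.64% and 1.75% of that sum in R2, R3, R4 and R5. Complex IV held 21.9%, 24.4%, 26.2% and 24.6% in the same order. The gene Cox6a1 weighs heavily on this share and its difference between libraries. It was at 452, 424, 258 and 314 RPKM, of complex IV sums of 2830, 1851, 1010 and 1309 RPKM. A gain of the complex as a whole is thus not shown. Complex III held 12.9%, 12.1%, 11.4% and 11.7%. Complexes I and V, the bulk of the sum, differed little between libraries, with 30.4%, 29.9%, 28.6% and 29.4% for complex I and 31.4%, 31.5%, 32.2% and 32.5% for complex V.

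**Figure D2:**
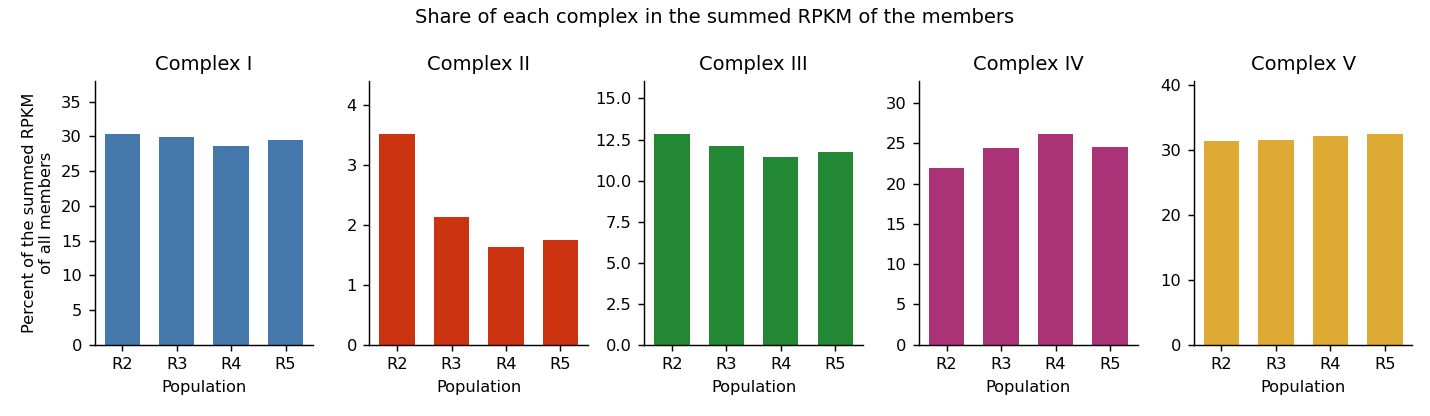
Share of each complex in the summed RPKM of all 85 members (percent, vertical axis from 0, scaled separately per panel) in R2, R3, R4 and R5. The complex II share is 1.75% in R5 and 3.53% in R2, while the complex IV share is 24.6% in R5 and 21.9% in R2. The gene Cox6a1, at 314 RPKM in R5 and 452 RPKM in R2, weighs heavily on the complex IV share.

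Complex II, succinate dehydrogenase, links the citric acid cycle to the respiratory chain and is the only respiratory complex whose subunits are all nuclear-encoded. Sdhd, a membrane anchor, was at 141, 37.5, 14.7 and 23.2 RPKM in R2, R3, R4 and R5. Its R5 value was 6.10-fold below its R2 value. The log2 ratio of RPKM + 1 for Sdhd, -2.56, was the lowest among the 80 members, a rank that depends on the added 1. By RPKM alone Cox6a2 was 32.3-fold lower and Atp5sl 6.80-fold lower, and Ndufb4 and Cox7a1 were at 0 in R5. The smallest read numbers that fit Cox6a2 were 36 in R2 and 1 in R5, by a fit that was not accepted. Sdhc, the other anchor, was at 68.2, 29.1, 9.81 and 17.2 RPKM in R2, R3, R4 and R5. Sdha, the flavoprotein that oxidises succinate, was at 118, 45.8, 17.5 and 21.99 RPKM, and Sdhb, the iron-sulfur subunit, at 128, 49.3, 21.3 and 30.8 RPKM in the same order. All 4 genes were highest in R2 and at their minimum in R4. Their log2 ratios of R5 over R2 were -2.56 for Sdhd, -2.37 for Sdha, -2.02 for Sdhb and -1.93 for Sdhc, below the all-gene median in 4 of 4 cases as deposited and without globins. With median scaling 3 of the 4 lay below it, with ratios of -0.98 for Sdhd, -0.80 for Sdha and -0.45 for Sdhb against -0.42 for all genes, and Sdhc above it at -0.37. The changed side of Sdhc comes from the added 1 RPKM, as median scaling is a single factor per library. Counting error was small beside these ratios, if each gene rested on at least 168 reads in R5 and at least 739 in R2. These are the smallest read numbers that fit the values, and none of the 4 fits passed the limit for acceptance.

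**Figure D3:**
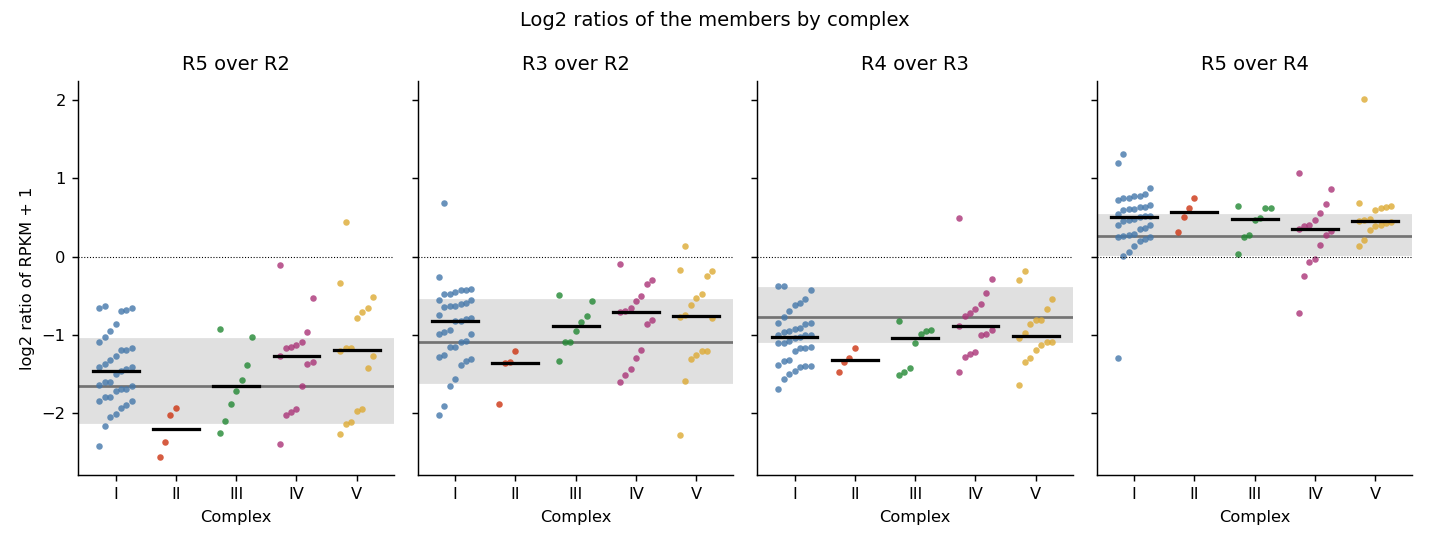
Log2 ratios of RPKM + 1 (vertical axis) of the 80 members by complex, for R5 over R2, R3 over R2, R4 over R3 and R5 over R4. Points are genes, black bars complex medians, the grey line and band the median and middle 50% of all 9942 genes, and the complex II bar lies below the grey line in the first 3 panels (-2.20 against -1.65 in R5 over R2).

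Complex I takes electrons from NADH. Its 7 nuclear-encoded core subunits take part in electron transfer, and its other nuclear-encoded subunits are accessory. All 7 core genes were at least 2-fold lower in R5 than in R2, with a median of -1.80, and 23 of 30 accessory genes were lower, with a median of -1.41, beside 76.9% of all genes. The 30 are all members named Nduf outside the core. They include Ndufa4, grouped by its name, and its paralogue Ndufa4l2, with ratios of -1.50 and -1.02. Ndufs7, which holds the last iron-sulfur cluster, was at 252, 96.0, 42.3 and 71.8 RPKM in R2, R3, R4 and R5, a ratio of -1.80 in R5 over R2. Ndufv1, which binds NADH, was the core gene with the highest ratio, -1.17, at 145, 95.4, 41.8 and 64.0 RPKM. That ratio turned to 0.42 under median scaling and 0.07 without globins. With median scaling 0 of 7 core genes and 1 of 30 accessory genes were lower, with medians of -0.21 and 0.16. Without globins 0 core and 2 accessory genes were lower, with medians of -0.55 and -0.18.

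Among accessory subunits of complex I the spread was wide. Ndufb5 was at 45.1, 10.4, 5.26 and 7.63 RPKM in R2, R3, R4 and R5, and had the lowest ratio of R5 over R2, -2.42. Ndufa10 had a ratio of -2.00, with 118, 47.7, 18.3 and 28.5 RPKM. At the other end Ndufb7 was at 238, 198, 116 and 154 RPKM in R2, R3, R4 and R5, a ratio of -0.63. Ndufb7 also had the highest mean level of the complex, followed by Ndufa4, Ndufa2 and Ndufa3. Ndufa2 was at 202, 148, 71.9 and 111 RPKM and Ndufa3 at 179, 133, 69.8 and 111 RPKM, with ratios of -0.86 for Ndufa2 and -0.68 for Ndufa3. These turned to 0.73 and 0.91 under median scaling and to 0.38 and 0.56 without globins. Ndufb11 and Ndufa11 were likewise within 2-fold of R2, both at -0.66. Ndufb7, Ndufb11 and Ndufa11, the highest 3 of the complex, were thus lower in R5 than in R2 by less than 2-fold as deposited and higher with both rescalings, at 0.97, 0.91 and 0.83 with median scaling and 0.62, 0.57 and 0.52 without globins.

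Complex III passes electrons from quinol to cytochrome c. Cyc1, the cytochrome c1 subunit, was at 233, 109, 40.0 and 62.4 RPKM in R2, R3, R4 and R5, a ratio of -1.88 in R5 over R2, and Uqcrfs1, the Rieske iron-sulfur protein, at 88.6, 51.9, 18.1 and 29.0 RPKM, a ratio of -1.58. The core proteins on the matrix side were lower as well, with ratios of -2.25 for Uqcrc2 and -1.72 for Uqcrc1. Uqcrc1 was at 312, 146, 67.5 and 93.9 RPKM and Uqcrc2 at 76.6, 29.7, 14.9 and 15.3 RPKM in R2, R3, R4 and R5. Of the small subunits, Uqcr, the current Uqcr11, was at 406, 210, 110 and 155 RPKM, a ratio of -1.39 with 0.21 under median scaling and -0.14 without globins. Uqcrh was at 176, 125, 70.7 and 85.9 RPKM, a ratio of -1.03 that turned to 0.56 under median scaling and 0.21 without globins. Uqcrq was at 337, 227, 114 and 177 RPKM in R2, R3, R4 and R5, the single gene of the complex within 2-fold of R2, at -0.93, which turned to 0.67 under median scaling and 0.32 without globins. Uqcrb, at 6.34 RPKM in R5 and 30.4 RPKM in R2, a ratio of -2.10, rested on 13 reads in R5 and 69 in R2.

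Complex IV, cytochrome c oxidase, reduces oxygen. Its catalytic subunits are encoded in mitochondria, and the nuclear genes encode the surrounding subunits, several of them as tissue-specific paralogues. Cox6a1, the widely expressed form of subunit 6A, was at 452, 424, 258 and 314 RPKM in R2, R3, R4 and R5, a ratio of -0.53 in R5 over R2 that turned to 1.07 under median scaling and 0.72 without globins. Cox8a was at 625, 357, 193 and 241 RPKM and Cox4i1 at 560, 356, 185 and 256 RPKM in the same order, with ratios of -1.37 for Cox8a and -1.13 for Cox4i1. Under median scaling these turned to 0.23 and 0.47, and without globins they were -0.12 and 0.12. Cox6a1 had the highest level of the complex in R3, R4 and R5, and Cox8a in R2. Cox4nb was at 17.6, 6.58, 2.21 and 3.71 RPKM. Cox5a, a matrix-side subunit, had the lowest ratio, -2.39, with 190, 66.1, 26.6 and 35.4 RPKM, while Cox5b was at 209, 115, 57.1 and 92.1 RPKM, a ratio of -1.17 that turned to 0.42 under median scaling and 0.07 without globins. Cox6c, at 149, 117, 68.7 and 76.2 RPKM, was within 2-fold of R2, at -0.96, which turned to 0.63 under median scaling and 0.28 without globins.

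The paralogues of subunit 6B did not keep their proportion. Cox6b1, the widely expressed form, was at 251, 177, 87.6 and 112 RPKM in R2, R3, R4 and R5. Cox6b2, known as the testis form, was at 66.8, 54.3, 33.8 and 62.3 RPKM in the same order. As deposited, R5 was close to R2 for Cox6b2 and below it for Cox6b1. The ratio of RPKM in R5 over R2 was 0.932 for Cox6b2, with a 95% counting interval of 0.834 to 1.04, and 0.448 for Cox6b1, with 0.411 to 0.488. These intervals (Clopper-Pearson) cover counting error only. For Cox6b2 the interval uses the smallest number of reads that fits its values, a fit that did not pass the limit for acceptance. Cox6b2 made up 21.0%, 23.5%, 27.8% and 35.7% of the summed RPKM of the pair in R2, R3, R4 and R5. The log2 ratio of Cox6b2, -0.10, was the highest among the kept members of complex IV, with 1.47 under median scaling and 1.13 without globins. That of Cox6b1 was -1.15 and turned to 0.44 under median scaling and 0.09 without globins. Neither gene shares exonic bases with another gene in the annotation at hand.

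Cox7a2 and Cox7a2l, whose protein helps to join complexes III and IV into supercomplexes, differed in their course. Cox7a2 was at 91.6, 61.8, 44.5 and 37.3 RPKM and Cox7a2l at 72.1, 31.0, 12.7 and 17.1 RPKM, each in the order R2, R3, R4 and R5. The share of Cox7a2l in the summed RPKM of the Cox7a family was 43.5%, 33.3%, 21.9% and 31.4% in R2, R3, R4 and R5, so it was lower in all later populations than in R2. Cox6a2, the heart and muscle form, was at 3.23, 0.40, 0.15 and 0.10 RPKM in R2, R3, R4 and R5, or 0.0319% of the Cox6a sum in R5 and 0.710% in R2. Cox7a1, also known from heart and muscle, was at 2.15, 0.17, 0.65 and 0 RPKM, backed by 11, 1, 4 and 0 reads. The value of 0 in R5 allows up to 0.649 RPKM at 3 reads. Cox4i2, the lung and hypoxia form, stayed under 1 RPKM, at 0.55, 0.07, 0.13 and 0.97 RPKM. Cox7b2, Cox8b and Cox8c, known from germ cells or muscle, were listed at 0 in all 4 libraries, while Cox7b was at 56.7, 34.2, 22.1 and 21.8 RPKM.

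**Figure D4:**
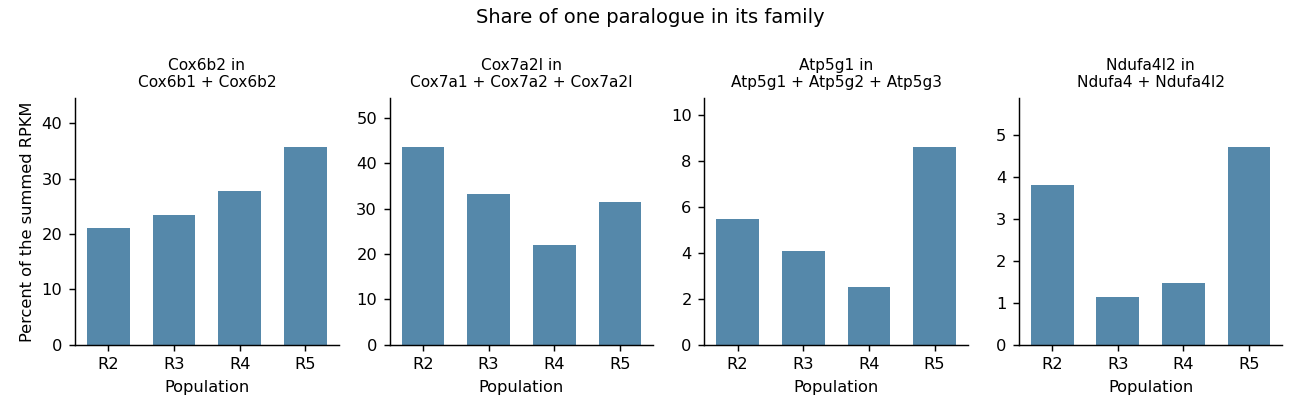
Share of 1 paralogue in the summed RPKM of its family (percent, vertical axis from 0, scaled separately per panel) in R2, R3, R4 and R5. Cox6b2 is at 35.7% in R5 and 21.0% in R2, Cox7a2l at 31.4% in R5 and 43.5% in R2, Atp5g1 at 8.60% in R5 and 5.49% in R2, and Ndufa4l2 at 4.72% in R5 and 3.81% in R2.

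Ndufa4 was at 235, 150, 69.3 and 82.6 RPKM, and its hypoxia-linked paralogue Ndufa4l2 at 9.33, 1.75, 1.04 and 4.09 RPKM, each in the order R2, R3, R4 and R5. Ndufa4l2 stood at 3.81% of the sum of both in R2, against 1.15%, 1.48% and 4.72% in R3, R4 and R5, so the intermediate populations were the low ones.

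Complex V consists of the catalytic F1 head, a peripheral stalk, the membrane ring of c subunits and small membrane subunits. Atp5b, the catalytic beta subunit, had the highest mean of all members, with 945, 550, 303 and 353 RPKM in R2, R3, R4 and R5. Atp5a1, the alpha subunit that alternates with it in the head, was at 561, 226, 91.4 and 116 RPKM. Their log2 ratios of R5 over R2 were -1.42 for Atp5b and -2.27 for Atp5a1, the lowest of the complex. Under median scaling they were 0.18 for Atp5b and -0.67 for Atp5a1, and without globins -0.17 and -1.02. The small subunits of the head stood above both, with Atp5d at 421, 251, 117 and 188 RPKM (ratio -1.16) and Atp5e at 434, 312, 177 and 275 RPKM (ratio -0.66). Both ratios turned positive under median scaling, at 0.44 for Atp5d and 0.94 for Atp5e, and without globins, at 0.09 and 0.59.

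In the peripheral stalk Atp5j was at 119, 50.8, 24.3 and 26.8 RPKM in R2, R3, R4 and R5, a ratio of -2.11, whereas Atp5h was at 161, 143, 64.9 and 98.4 RPKM, a ratio of -0.70 that turned to 0.89 under median scaling and 0.54 without globins. The membrane accessory genes Atp5j2 and Atp5k lay within 2-fold of R2. Atp5j2 was at 288, 242, 152 and 202 RPKM in R2, R3, R4 and R5, a ratio of -0.51, and Atp5k at 279, 182, 103 and 162 RPKM, a ratio of -0.78. Both were higher in R5 than in R2 under median scaling, at 1.08 and 0.82, and without globins, at 0.73 and 0.47. Atp5l, the last of these genes, was the only kept member with a higher RPKM in R5 than in R2 (7.63% of all genes), at 43.6, 48.0, 42.1 and 59.4 RPKM. Its values rested on 13, 16, 15 and 16 reads over 13 countable bases, and the R5 over R2 ratio of 1.36 had a 95% counting interval of 0.615 to 3.08.

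Of the accessory proteins named after the complex, Atp5s was at 2.13, 1.76, 0.89 and 1.48 RPKM and Atp5sl at 9.66, 1.20, 0.79 and 1.42 RPKM.

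The c ring is encoded by 3 genes for the same mature protein. Atp5g3 was at 434, 181, 70.7 and 110 RPKM in R2, R3, R4 and R5, and Atp5g1 at 25.2, 7.74, 1.81 and 10.4 RPKM. Atp5g2 was listed at 0 in all 4 libraries, which is not read as absence. Atp5g1 made up 5.49%, 4.10%, 2.50% and 8.60% of the summed RPKM of the family in R2, R3, R4 and R5. Its R5 over R4 log2 ratio of 2.02 was the highest of all members in that step. The RPKM ratio was 5.73, with a 95% counting interval of 2.31 to 17.0, from 26 reads in R5 and 6 in R4. The share of these paralogues is uncertain, because 37.3% of the 36-base windows of Atp5g2 and 12.7% of those of Atp5g1 also occur in transcripts of other annotated genes.

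Several subunit genes have many near-identical pseudogenes. Where RPKM values were whole multiples of a common step, the number of bases over which reads were counted could be fitted. A fit was accepted for 32 of the 81 members above 0 in some library, at 13 to 371 bases. Of these, 12 were at 150 bases or fewer, and a median of 24.7% of their 36-base windows occurred in transcripts of other genes, against 0% for the other 73 members. Atp5l was at 69.4% of windows in 19 other genes, 18 of them pseudogenes, and Uqcrb at 51.0%. Ndufs3 was at 44.9% and Atp5h at 44.2%, so their levels and ratios above carry the same limit. Ndufb4 was at 37.9%, and its 3.48, 6.24, 1.46 and 0 RPKM came from 2, 4, 1 and 0 reads, the value of 0 in R5 allowing up to 5.79 RPKM. In all, 4 members had under 30 reads in every library, namely Ndufb4, Cox7a1, Cox4i2 and Atp5l. For Cox4i2 this rests on a fit that was not accepted. Without these and without members at 0, 61 of 77 were lower in R5 than in R2 and the median was -1.41. Other genes overlap members: 41.7% of the exonic bases of Cox5a, 26.6% of those of Uqcrc2 and 16.3% of those of Atp5j lie opposite another gene (for Atp5j, Gabpa), and 20.1% of those of Cox4i1 lie opposite Emc8, the current name of Cox4nb. Whether counting used strand is not given in the sources used here, so reads of such pairs may not be told apart.

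**Figure D5:**
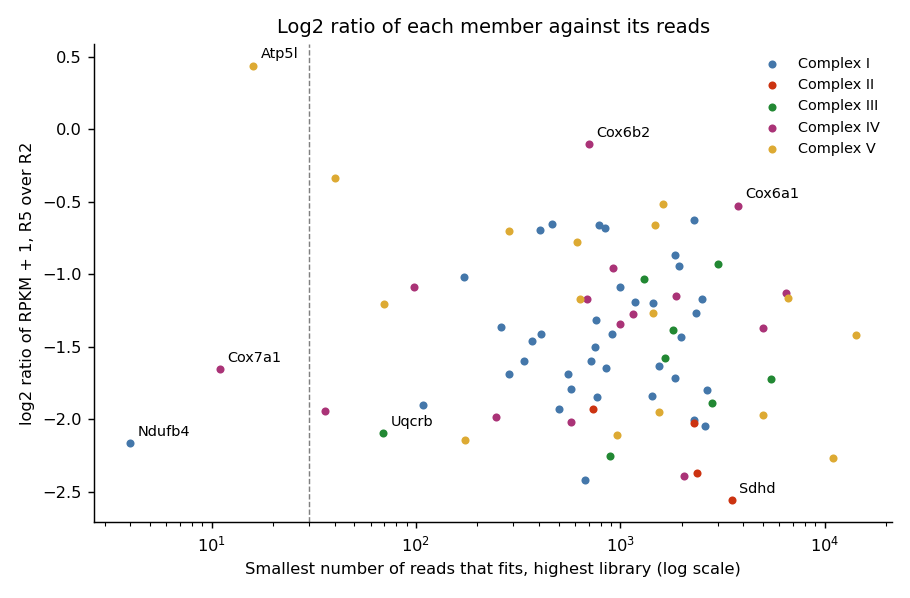
Log2 ratio of RPKM + 1 in R5 over R2 (vertical axis) of the 80 kept members against the smallest number of reads that fits their values in the library with the most (horizontal log axis). The dashed line marks 30 reads, and Atp5l, the single member above 0 on the vertical axis, lies left of it with 16 reads.

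In the first step, R3 over R2, 31 of 80 members were at least 2-fold lower and 0 higher (55.1% and 3.81% of all genes), with a median of -0.81 against -1.09 for all genes. All 4 complex II genes were among the 31, with 13 of 37 in complex I, 3 of 8 in complex III, 5 of 15 in complex IV and 6 of 16 in complex V. The lowest ratios among genes at 10 RPKM or more were -2.02 for Ndufb5, -1.89 for Sdhd and -1.65 for Ndufs5, and the highest were 0.14 for Atp5l, -0.09 for Cox6a1 and -0.17 for Atp5h. With median scaling 4 members were lower and 1 higher (18% and 8.38% of all genes), and without globins 5 lower and 1 higher (22.8% and 7.81%). By any amount, 2 members, Ndufb4 and Atp5l, had a higher RPKM in R3 than in R2 (12.6% of all genes).

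In R4 over R3, 42 of 80 members were at least 2-fold lower and 0 higher (32.1% and 0.493% of all genes), and their median of -1.01 lay below the -0.77 of all genes. Only 18 of the 80 were above the all-gene median. Among genes at 10 RPKM or more in R3 or R4, the lowest ratios were -1.69 for Ndufs3, -1.51 for Uqcrb and -1.50 for Ndufc2, which was at 10 RPKM in R4 and 30.2 RPKM in R3. The highest among these genes were -0.19 for Atp5l and -0.38 for both Ndufa1 and Ndufs5. With median scaling 0 members were lower and 0 higher (0.382% and 4.26% of all genes), and the members' median of 0.01 lay slightly above the all-gene value of -0.06. Without globins 3 members were lower and 0 higher (2.83% and 1.98% of all genes), with a median of -0.37 against -0.34. By any amount, 1 member, Cox7a1, had a higher RPKM in R4 than in R3 (6.37% of all genes), on 4 and 1 reads. The side on which the members' median stood relative to that of all genes thus turned with median scaling. As that scaling is a single factor per library, the turn comes from the added 1 RPKM. It is not a result about the members.

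In R5 over R4 the members were higher again. Of the 80, 75 had a higher RPKM in R5 than in R4 (76.2% of all genes), with 4 past 2-fold upward and 1 downward (3.96% and 0.604% of all genes), and the median was 0.47 against 0.27. The 4 were Atp5g1 at 2.02, Ndufa4l2 at 1.32, Ndufc2 at 1.19 and Cox7c at 1.08, and the lower one was Ndufb4 on its 0 and 1 reads. Ndufc2 was at 24.1 RPKM in R5 and 10 RPKM in R4, and Cox7c at 38.8 RPKM in R5 and 17.9 RPKM in R4. At 10 RPKM or more, the lowest ratios were -0.25 for Cox7a2, -0.02 for Cox7b and 0.01 for Ndufa5. With median scaling the members' median in this step was 0.13 against 0.07 for all genes, with 2 members lower and 2 higher (2.56% and 1.75%). Without globins it was 0.30 against 0.18, with 2 lower and 3 higher (1.58% and 2.98%). The comparisons R5 over R2 and R3 over R2 share the R2 library, and neighbouring steps share the library between them.

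Genes that build and feed the complexes stood lower in R5 than the subunits did. Of 39 assembly factor genes kept, 36 were at least 2-fold lower in R5 than in R2 and 0 higher, with a median of -1.92. Cox17, the copper chaperone of complex IV, was highest, at 98.7 RPKM in R5 and 160 RPKM in R2, a ratio of -0.69 that turned to 0.89 under median scaling and 0.55 without globins. Cox10, which makes heme A for complex IV, was lowest, at 1.46 RPKM in R5 and 15.3 RPKM in R2, a ratio of -2.73. Mitochondrial import and chaperone genes were lower in 31 of 31 cases, with a median of -2.29. Among them Phb2, a prohibitin, was at 68.7 RPKM in R5 and 424 RPKM in R2, and Hspd1, the matrix chaperonin, at 38.2 RPKM in R5 and 314 RPKM in R2.

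Citric acid cycle and pyruvate genes were lower in 18 of 20 cases, with a median of -2.20. Mdh2, malate dehydrogenase, was at 89.8 RPKM in R5 and 357 RPKM in R2, and Pdha1, of pyruvate dehydrogenase, at 7.14 RPKM in R5 and 58.5 RPKM in R2. Brp44, a mitochondrial pyruvate carrier gene now called Mpc2, stood out at 35.9 RPKM in R5 and 33.3 RPKM in R2. Electron carrier and ubiquinone genes were lower in 16 of 16 cases (median -1.91), and genes of mitochondrial genome upkeep in 13 of 14 (median -1.97), with Polrmt, the mitochondrial RNA polymerase, at 2.92 RPKM in R5 and 25.1 RPKM in R2. Regulators of respiration were lower in 12 of 13 cases (median -1.97). Nrf1, a transcription factor known to act on subunit genes, was the exception, at 11.8 RPKM in R5 and 23.8 RPKM in R2, a ratio of -0.96 that turned to 0.55 under median scaling and 0.22 without globins. Myc was at 13.5 RPKM in R5 and 118 RPKM in R2. The counts of these lists stand beside 76.9% of all genes lower. Under median scaling their medians were -0.60 for assembly factors, -0.76 for import, -0.63 for the citric acid cycle, -0.50 for electron carriers, -0.72 for genome upkeep and -0.74 for regulators, against 0.16 for the subunits and -0.42 for all genes, so the subunit median lay above those of these 6 lists both as deposited and with median scaling. Median scaling is no independent check of this order, as it multiplies each library by a single factor. The granulocyte markers were also highest in R2, and their part in these levels was not tested.

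Regulators and carriers around the ATP synthase had the highest median of the 7 related lists as deposited. They also had it with median scaling, which is no independent check of that rank. Of 9 kept genes, 5 were at least 2-fold lower in R5 than in R2 and 0 higher, beside 76.9% of all genes lower, with a median of -1.23. With median scaling 1 was lower and 3 higher, with a median of 0.34, and without globins 3 were lower and 2 higher, with a median of -0.0035. Atpif1, the inhibitor that keeps the ATP synthase from running backwards and is known to act in erythroid heme synthesis, was at 462, 558, 379 and 457 RPKM in R2, R3, R4 and R5. Its log2 ratio of R5 over R2 was -0.02, with 1.58 under median scaling and 1.23 without globins, whereas the subunit it binds, Atp5b, stood at 353 RPKM in R5 and 945 RPKM in R2. Ucp2, an inner membrane carrier, was at 165, 346, 354 and 286 RPKM in R2, R3, R4 and R5, a ratio of 0.79 in R5 over R2 against 2.38 under median scaling and 2.04 without globins. Slc25a4, an ADP/ATP carrier, was the lowest of the list, at 14.0 RPKM in R5 and 97.4 RPKM in R2, a ratio of -2.72.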

How the data were processed

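RNA of 4 sorted populations was sequenced, 1 library each. Per the labels, RNA was poly(A)-enriched and run on an Illumina instrument, and the deposited values are RPKM per gene symbol, made by the authors on mouse build mm9 per the submitters' processing notes. The sources used here name no aligner, annotation, gene lengths or use of strand, and an RPKM falls where a gene's countable length is overstated or other genes take more reads.

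Populations were compared by log2 ratios of RPKM + 1 over the 9942 genes at 1 RPKM or more in at least 1 library, called at 2-fold. With 1 library per population no test was possible. Depth and reads per gene were inferred from the spacing of the RPKM values, accepted where the chance of a fit was under 0.01. On simulated data for this step, 220 of 400 genes were accepted and 92.3% of these had exact reads. The calls were tested on simulated data drawn from R2, where 200 changed genes of 9942 were all called in the right direction. All of these genes were at 10 RPKM or more, with changes past 2-fold and counting noise only. That outcome was thus nearly fixed in advance. It does not cover low genes, changes near 2-fold, the scaling or the spread between animals. Intervals are exact (Clopper-Pearson, 95%) and cover counting error only. Windows of 36 bases and exon overlaps were taken from GRCm38 transcripts.

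Named are, per complex, the 4 genes of highest mean level and those with the 3 top and 3 bottom ratios of R5 over R2 at 10 RPKM or more, all paralogues, the Sdh genes and Cyc1, genes at 0 or under 30 reads, the 3 highest and 3 lowest of each step, and from related lists those with the highest mean or extreme ratios. Cox5b, Ndufs7, Ndufv1, Uqcrfs1 and Atp5k were added for their roles or promoters after their values were seen. A gene that the rule names is not reported here. The members and lists were chosen with earlier results of these data known. Alternatives were pseudocounts of 0.1 and 5 RPKM, no filter or 5 RPKM, median scaling over 2745 genes, removal of 8 globin genes, and leaving out thin members or the 3 non-subunits. Python 3.11.15, pandas 2.3.3, numpy 2.4.6 and scipy 1.17.1 were used.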

Additional observations from a re-analysis of the deposited data

How the results depend on the processing

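Scaling decided the absolute direction of the members. For R5 over R2 the median of -1.42 became 0.16 with median scaling, -0.18 without globins and -1.29 with a pseudocount of 5 RPKM. The 63 lower and 0 higher members became 2 and 4 with median scaling and 10 and 2 without globins. For R3 over R2 the median of -0.81 became 0.062 with median scaling and -0.043 without globins, and the 31 lower and 0 higher members became 4 and 1, and 5 and 1. For R4 over R3 the median of -1.01 became 0.014 with median scaling and -0.37 without globins, the 42 lower members became 0 and 3, and a pseudocount of 0.1 RPKM gave 1 higher. For R5 over R4 the median of 0.47 became 0.13 with median scaling and 0.30 without globins. The 4 higher members there became 2 with median scaling and 1 with a pseudocount of 5 RPKM. The 1 lower member became 2 with median scaling, without globins and with a pseudocount of 0.1 RPKM, and 0 with a pseudocount of 5 RPKM or without thin members. The complex IV median minus the median of all members was 0.14, and 0.24 with a filter of 5 RPKM. With that filter complex IV passed complex V, which was at 0.21. The causes were not tested. The other 94 values kept their direction and size within 0.1 on the log2 scale or 1.5 times, among them the complex II median at -0.78 below that of all members. No paired analysis was possible because each population has 1 library. Depth limits the members with few reads, and without replicates no difference can be set against the spread between animals.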
